A study of Homo sapiens with 18 samples.

Results

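The ABC transporter family was described in 18 RNA-seq libraries of the pancreatic ductal adenocarcinoma (PDAC) lines Panc1 and Panc89. Its members were taken as every gene symbol made of ABC, a family letter from A to G and a number, which gave 46 of the 40266 symbols in the table. Panc1 cells, a mesenchymal-like line from a primary tumor, and Panc89 cells, an epithelial line from a lymph node metastasis, were each sequenced as parental cells, Holoclone cells (the cancer stem cell, or CSC, population) and Paraclone cells (the non-CSC population). All 6 groups were cultured without a named treatment and had 3 replicates, taken from 3 cell passages, so p-values measure the spread between passages. Each Holoclone and Paraclone group was grown from 1 single cell, so the difference between these groups is one between single clones and cannot be told apart from the particular clone picked.

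ABC proteins are membrane pumps that bind and hydrolyze ATP to move a substrate across a membrane, or, in the E and F families, soluble ATPases without a membrane part that act in translation and ribosome recycling. The A family and parts of the B and G families move cholesterol, phospholipids and bile acids. Much of the C family exports organic anions, drug conjugates and nucleotide analogs, and most of the D family carries fatty acids into peroxisomes. *ABCB1* (P-glycoprotein), *ABCC1* (MRP1) and *ABCG2* (BCRP) are the best known multidrug exporters, and *ABCG2* is widely used as a marker of stem-like side population cells.

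Panc89 Paraclone replicate 2 and Panc89 Holoclone replicate 1 stood furthest from their groups by the root mean square deviation from the group mean over tested genes, at 0.422 and 0.386 on the log2 scale, while the median over all libraries was 0.258. The deposited unit was log2(TPM + 1), where TPM is a transcript level corrected for transcript length and scaled to a fixed total per library. Sequencing depth is therefore unknown. Between 12932 and 14199 genes reached 1 TPM per library, and mitochondrially encoded transcripts took 5.62% to 9.44% of the TPM. Among markers of the lines, all 5 epithelial genes tested were higher in parental Panc89 than in parental Panc1 cells, and 3 of 4 mesenchymal genes were lower. Markers of other cell types were mostly near 0 but not all: the summed TPM of 3 leukocyte markers, nearly all of it *CD68*, was 88.0 to 96.8 in parental Panc1 and 8.55 to 14.8 in parental Panc89 cells, and it was lower in the Holoclone than in the Paraclone cells of Panc1 (52.2 to 69.0 against 124 to 151) and Panc89 (18.2 to 25.6 against 34.2 to 63.1). That of 2 endothelial markers was 55.1 to 68.9 in parental Panc89 cells and at most 0.126 in every Panc1 library. The 3 fibroblast markers summed to 1.06 to 1.36 TPM in Panc1 Paraclone cells and to between 6.54 and 27.2 TPM in the other 5 groups. The acinar and the islet markers each summed to at most 1.36 TPM in any library. The part of these genes in the results was not tested. In bulk RNA, fewer cells with a transcript and less transcript per cell cannot be told apart.

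Of the 46 members, 32 had at least 1 TPM in at least 3 libraries and were tested, and 21 of these had at least 1 TPM in every library. The 14 members left out were *ABCA6*, *ABCA8*, *ABCA9*, *ABCB1*, *ABCB4*, *ABCB5*, *ABCC8*, *ABCC11*, *ABCC12*, *ABCC13*, *ABCD2*, *ABCG4*, *ABCG5* and *ABCG8*, of which 13 stayed under 1 TPM in every library. The exception was *ABCG4*, a brain cholesterol exporter, whose highest value was 1.31 TPM in parental Panc1 cells. *ABCD2* and *ABCG5* were listed at 0 in all 9 Panc1 libraries and *ABCA12* in 8 of them.

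**Figure D1:**
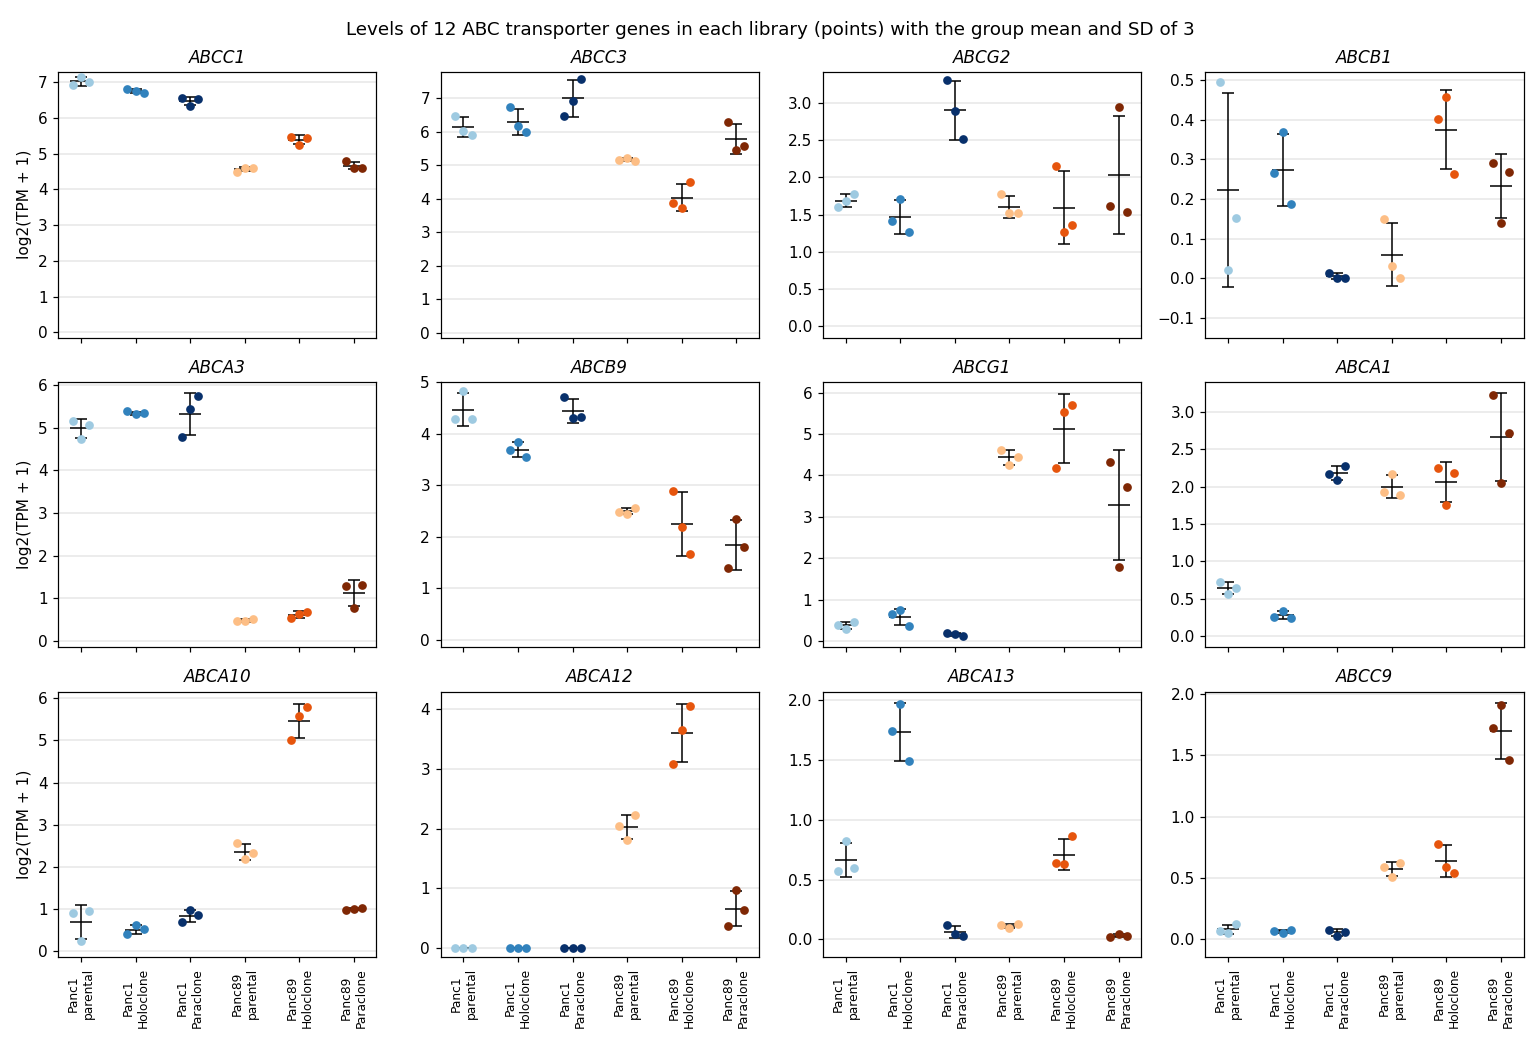
Levels of 12 ABC transporter genes as log2(TPM + 1) (vertical axes, each panel with its own range) in the 6 cell variants (horizontal axis). Points are single libraries, the horizontal mark is the mean and the bar 1 SD of 3 replicates; *ABCA3*, *ABCB9* and *ABCC1* sat higher in every Panc1 than in every Panc89 library, while *ABCG1* sat higher in every Panc89 library.

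The promoter sequences of 3 A family members are shown because these genes carried some of the widest line or clone differences described below. *ABCA3* was far lower in Panc89, *ABCA1* was lower in Panc1 Holoclone than Paraclone cells, and *ABCA12* was found almost only in Panc89 cells. Each line gives the 250 bases before a RefSeq transcription start on GRCh38.p14, 5′ to 3′ on the strand of the gene, which is the minus strand in all 4 cases. Capitals mark matches, on either strand, to TGACNNNGC (the core of the antioxidant response element), CACCTG (the E-box bound by ZEB and SNAI factors), GGGCGG (the GC box) and TATAAA (the TATA box), and no matches overlapped. *ABCA12* has 2 annotated starts.
ABCA1 chr9:104928156-104928405: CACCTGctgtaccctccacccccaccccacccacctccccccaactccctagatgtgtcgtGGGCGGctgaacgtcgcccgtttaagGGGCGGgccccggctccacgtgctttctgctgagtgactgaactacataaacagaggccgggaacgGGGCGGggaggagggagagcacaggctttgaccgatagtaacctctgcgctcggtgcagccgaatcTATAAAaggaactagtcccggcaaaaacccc
ABCA3 chr16:2340729-2340978: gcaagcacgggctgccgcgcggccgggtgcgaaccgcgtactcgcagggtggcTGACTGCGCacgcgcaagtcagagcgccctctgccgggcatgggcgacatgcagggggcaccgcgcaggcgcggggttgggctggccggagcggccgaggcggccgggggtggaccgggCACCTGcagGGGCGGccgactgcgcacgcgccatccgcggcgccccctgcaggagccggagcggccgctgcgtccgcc
ABCA12 chr2:215032087-215032336: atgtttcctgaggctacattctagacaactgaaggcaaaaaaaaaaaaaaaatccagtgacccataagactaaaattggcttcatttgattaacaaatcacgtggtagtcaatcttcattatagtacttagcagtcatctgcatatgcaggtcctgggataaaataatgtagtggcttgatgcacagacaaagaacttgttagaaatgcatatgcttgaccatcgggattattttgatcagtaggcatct
ABCA12 chr2:215138627-215138876: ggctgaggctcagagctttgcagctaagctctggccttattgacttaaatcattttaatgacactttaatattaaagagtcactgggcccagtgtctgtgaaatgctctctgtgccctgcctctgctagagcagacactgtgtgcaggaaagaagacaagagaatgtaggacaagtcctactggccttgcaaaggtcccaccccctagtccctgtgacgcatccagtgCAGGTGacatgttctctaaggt

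The *ABCA3* window was 79.2% GC with 38 CpG dinucleotides, and it held the antioxidant motif, the E-box and the GC box once each. The *ABCA1* window was 61.6% GC with 3 GC boxes, 1 E-box and 1 TATA box. In contrast, the *ABCA12* windows were 36.4% and 48.8% GC and those of *ABCA10*, another member with 2 starts, 31.2% and 23.6%, all below 58.0%, the median of 35116 RefSeq promoters of the same length. Across these promoters, TGACNNNGC was found in 10.9%, CACCTG in 17.5%, GGGCGG in 42.6% and TATAAA in 10.7%. Among the 53 windows of the 35 members that had one, the shares were 17%, 22.6%, 47.2% and 11.3%. These matches describe the sequence and were not tied to any measured level.

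The first question was how high the members stood in each cell variant. TPM is a level per transcript length, so members can be ranked within a group. *ABCC1* was the highest member in parental Panc1 cells, at 129.7 TPM or 16.0% of the summed TPM of the family, followed by *ABCF1*, a translation initiation factor. The order of the first places differed in the clones of this line: *ABCF1* (112 TPM) and *ABCC1* (107 TPM) led in Panc1 Holoclone cells, and *ABCC3*, an exporter of organic anions and bile acid conjugates, led in Panc1 Paraclone cells at 133 TPM, with replicates from 88.2 to 191 TPM that overlapped *ABCC1*. All 3 Panc89 variants had *ABCE1*, the ribosome recycling ATPase, in first place (85.4, 109.8 and 91.1 TPM in parental, Holoclone and Paraclone cells), and *ABCF1* in the second. *ABCA10* took the third place in Panc89 Holoclone cells at 44.2 TPM, while it was not among the first 8 in any other group.

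Summed over all 46 members, the family held 813 ± 63.7, 778 ± 54.0 and 754 ± 51.9 TPM (SD, n = 3) in Panc1 parental, Holoclone and Paraclone cells and 549.7 ± 34.7, 594 ± 28.0 and 518 ± 46.4 TPM in the corresponding Panc89 cells. Every Panc1 library was above every Panc89 library in this sum. Most of the gap lay with the drug and organic anion exporters, which summed to 215 to 334 TPM in the Panc1 libraries and to 85.6 to 138 TPM in the Panc89 libraries. Within this list it lay mostly with *ABCC1* and *ABCC3*, at 129.7 and 70.5 TPM in parental Panc1 and 22.8 and 35.0 TPM in parental Panc89 cells. *ABCG2*, for one, stood at 2.22 and 2.05 TPM in these cells. The soluble ATPases, in contrast, overlapped between the lines, at 185 to 299 TPM in Panc1 and 212 to 262 TPM in Panc89 libraries.

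**Figure D2:**
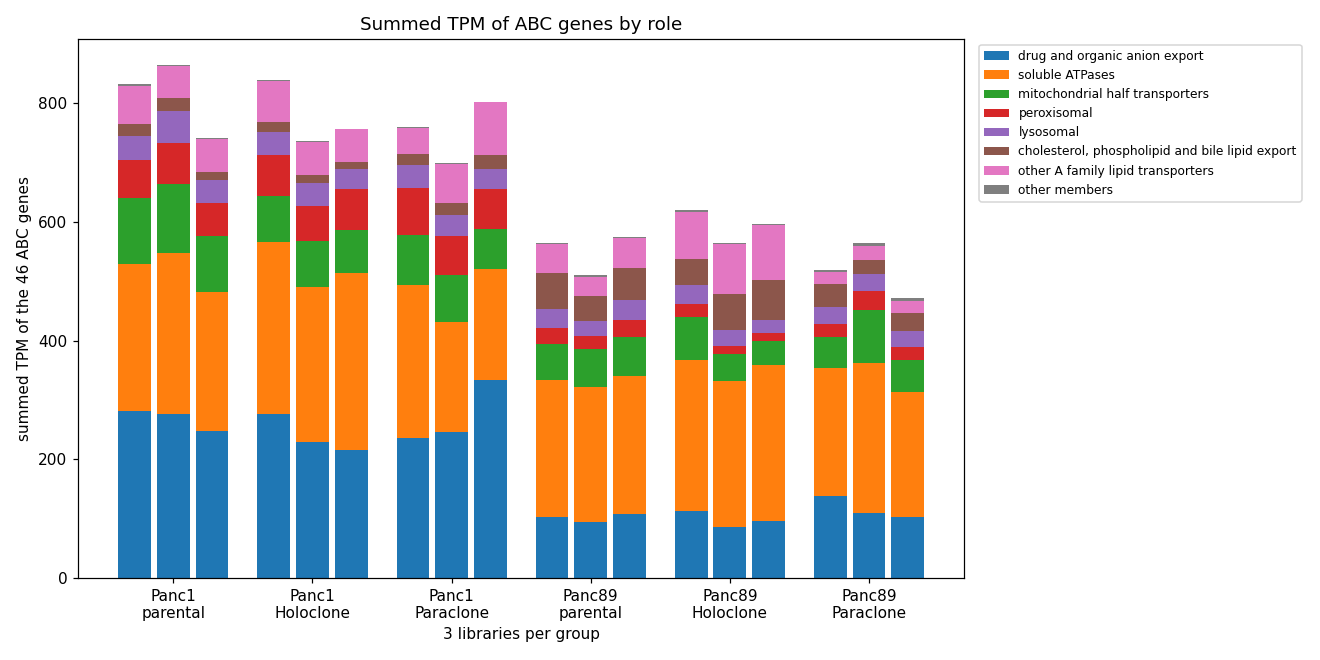
Summed TPM of the 46 ABC genes (vertical axis) in each of the 18 libraries (bars, 3 per cell variant), stacked by the role of the genes. The blue part, drug and organic anion export, was at least 215 TPM in every Panc1 library and at most 138 TPM in every Panc89 library.

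The second question was which members differed between the lines. Fold changes are differences of mean log2(TPM + 1) values, which makes the change of low genes look smaller than it is, and a value after ± beside a fold change is its standard error. In parental cells, 8 of the 32 tested members were higher and 13 lower in Panc89 than in Panc1 (limma, Benjamini-Hochberg adjusted p under 0.05 over all 16093 genes tested), while 27.5% of all tested genes were higher and 38.5% lower. Between the Holoclone cells, 9 were higher and 12 lower (background 29.3% and 36.4%), and between the Paraclone cells 7 were higher and 9 lower (background 30.2% and 30.4%). The shares of the members were thus near those of all genes in each variant. The median log2 fold change of the members was -0.29, -0.20 and -0.07 in parental, Holoclone and Paraclone cells, beside -0.18, -0.11 and -0.003 over all tested genes. Relative to all genes, with upper quartile or median-of-ratios scaling, the parental split moved to 10 higher and 11 lower, and the other splits kept their counts. When only the groups compared were fitted, calls were lost for *ABCA7* between the parental cells, for *ABCA2* and *ABCC5* between the Holoclone cells, and for *ABCB8*, *ABCE1* and *ABCG2* between the Paraclone cells. Between the parental cells, that fit also added calls for *ABCA2*, *ABCB10* and *ABCF1*. The 3 comparisons share no library, and 10 members passed in the same direction in all of them. *ABCA12*, *ABCC9*, *ABCE1* and *ABCG1* were the 4 higher in Panc89 (background 17.8%), and *ABCA3*, *ABCB8*, *ABCB9*, *ABCC1* and *ABCC3* were among the 6 lower (background 21.6%). Of these, *ABCC9* passed the filter only through the Panc89 Paraclone libraries. Among the other calls, *ABCA13* and *ABCB11*, called between the Holoclone cells, passed it only through the Panc1 and the Panc89 Holoclone libraries. *ABCA4*, called lower between the parental cells, would not have passed it without the parental Panc1 libraries.

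**Figure D3:**
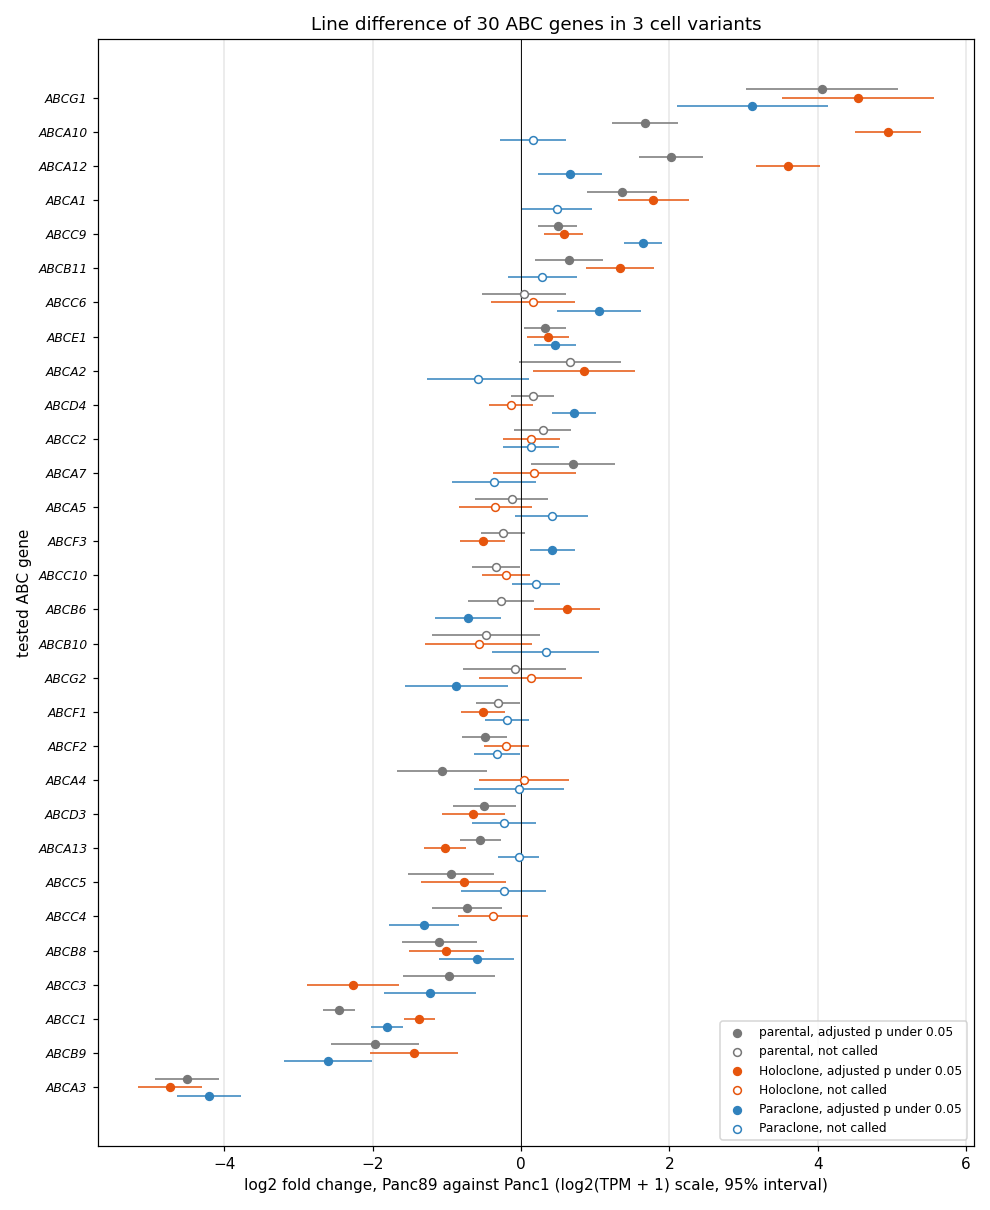
Log2 fold change of Panc89 against Panc1 cells on the log2(TPM + 1) scale (horizontal axis, with 95% interval) for 30 tested members (vertical axis, ordered by their mean change) in parental (gray), Holoclone (orange) and Paraclone (blue) cells. Filled points passed an adjusted p of 0.05; *ABCA3* and *ABCG1* lie at the ends, and *ABCA10* shows the widest spread between the 3 variants.

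The third question was how Holoclone and Paraclone cells of one line differed. In Panc1 cells, 6 members were higher and 4 lower in Holoclone than in Paraclone cells (18.8% and 12.5% of those tested, background 27.4% and 9.97%). In Panc89 cells, 9 were higher and 5 lower (28.1% and 15.6%, background 22.4% and 13.3%). The balance of these calls depended on the scaling. The median log2 fold change was 0.19 over all genes and 0.01 over the members in Panc1, and 0.09 and -0.06 in Panc89. After upper quartile or median-of-ratios scaling, which brought the median of all genes to 0.00, 3 members were higher and 8 lower in Panc1, and 8 were higher and 9 or 10 lower in Panc89 cells. The change between clones itself differed between the lines, as an interaction term, for 14 members, with 9 higher and 5 lower in Panc89 (28.1% and 15.6% of those tested, background 14.8% and 20.4%), and this count did not move with the scaling. These 14 include *ABCC9*, *ABCA13* and *ABCB11*, which passed the filter only through Panc89 Paraclone, Panc1 Holoclone and Panc89 Holoclone libraries, in that order. *ABCA13* is also in the Panc1 clone count, and *ABCB11* and *ABCC9* are in that of Panc89. The counts are thus not independent of the filter. Without Panc89 Holoclone replicate 1 the Panc89 clone comparison gave 17 members, and without Panc89 Paraclone replicate 2 it gave 15, while leaving out any of the other 4 libraries gave 11 or 12. When only the Panc89 clones were fitted it gave 9, without *ABCA1*, *ABCB10*, *ABCC4*, *ABCF2* and *ABCG1*. The Panc1 comparison gave 5 members without Holoclone replicate 3, without Paraclone replicate 2 or without Paraclone replicate 3, and 11 when only the Panc1 clones were fitted.

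**Figure D4:**
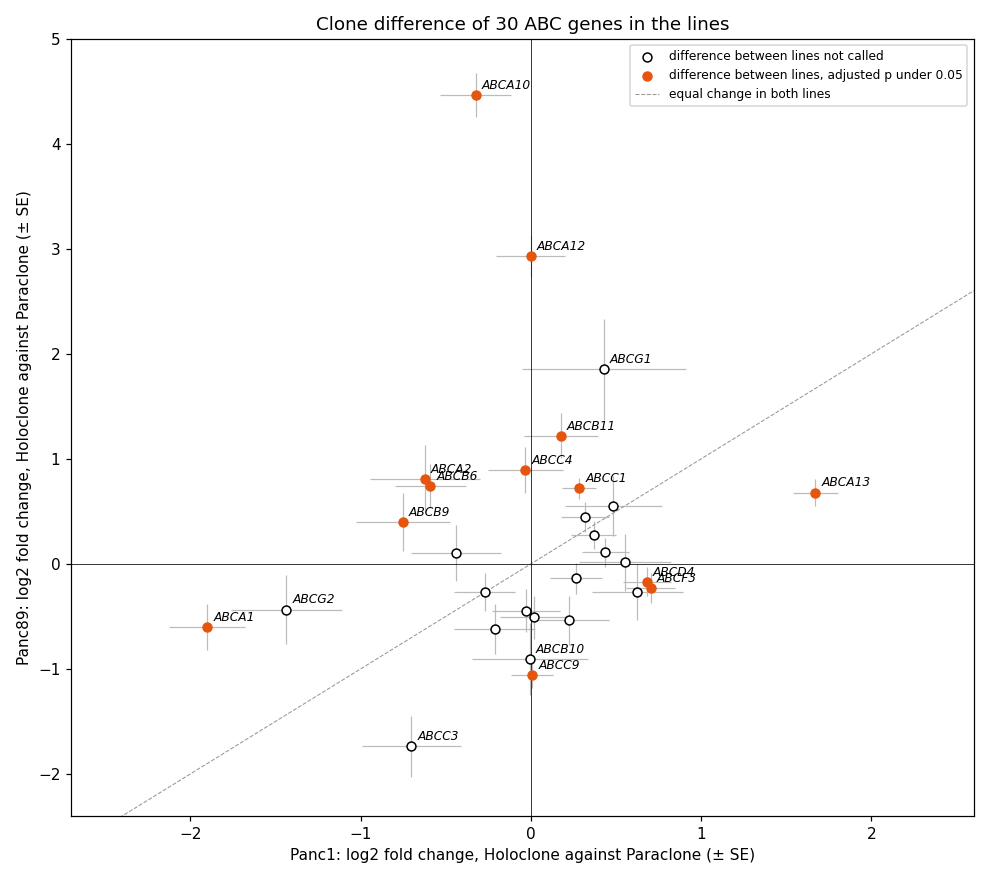
Log2 fold change of Holoclone against Paraclone cells in Panc1 (horizontal axis) and Panc89 (vertical axis) for 30 tested members, with SE bars, on the log2(TPM + 1) scale. Orange points differed between the lines at an adjusted p under 0.05 and the dashed line marks equal change; *ABCA10* and *ABCA12* lie far above it, at -0.32 and 0.00 in Panc1, and *ABCA1* and *ABCA13* lie on the outer left and right.

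Among the 9 drug and organic anion exporters, 7 were tested, and none was higher in Panc89 cells in any of the 3 line comparisons. Lower in Panc89 were 4 of 7 in parental, 3 in Holoclone and 4 in Paraclone cells, while 38.5%, 36.4% and 30.4% of all tested genes were lower and 27.5% to 30.2% higher, so the Holoclone count of 3 is near the background. *ABCC1* exports glutathione conjugates and many cytostatic drugs. *ABCC1* stood at 119.6, 142 and 127 TPM in the 3 replicates of parental Panc1 cells, at 111, 107 and 104 TPM in Panc1 Holoclone cells and at 93.1, 79.9 and 91.8 TPM in Panc1 Paraclone cells. For *ABCC1*, the Panc89 values were 21.7, 23.2 and 23.5 TPM in parental, 43.7, 37.1 and 42.4 TPM in Holoclone and 26.7, 23.5 and 23.3 TPM in Paraclone cells. All 9 Panc1 values lay above all 9 Panc89 values. The mean was 5.69-fold lower in parental Panc89 cells (log2 fold change -2.46 ± 0.10 SE, adjusted p = 7.01e-12), 2.62-fold lower in the Holoclone cells (log2 fold change -1.37 ± 0.10 SE, adjusted p = 7.23e-09) and 3.61-fold lower in the Paraclone cells (log2 fold change -1.81 ± 0.10 SE, adjusted p = 2.61e-10). Within Panc89, Holoclone cells had more *ABCC1* than Paraclone cells in every replicate (log2 fold change 0.72 ± 0.10 SE, adjusted p = 4.37e-05). This Panc89 call was lost with a replicate block within each line (adjusted p = 0.056). In Panc1 the Holoclone against Paraclone difference was log2 fold change 0.28 ± 0.10 SE, adjusted p = 0.036. It was no longer called after either scaling or in 5 of 6 leave-one-out fits, in which 1 of the libraries compared was left out.

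*ABCC3* stood at 87.9, 64.4 and 59.2 TPM in the 3 replicates of parental Panc1 cells, at 105, 71.4 and 62.2 TPM in Panc1 Holoclone cells and at 88.2, 121 and 191 TPM in Panc1 Paraclone cells. For *ABCC3*, the Panc89 values were 34.7, 36.2 and 34.1 TPM in parental, 13.7, 12.2 and 21.4 TPM in Holoclone and 76.7, 43.1 and 46.1 TPM in Paraclone cells. The Panc89 Holoclone cells were the lowest group, with no overlap with any other. *ABCC3* was lower in Panc89 than in Panc1 in parental (log2 fold change -0.97 ± 0.29 SE, adjusted p = 0.0081), Holoclone (log2 fold change -2.27 ± 0.29 SE, adjusted p = 4.71e-06) and Paraclone cells (log2 fold change -1.23 ± 0.29 SE, adjusted p = 0.0017). Within Panc89 it was 3.51-fold lower in Holoclone than in Paraclone cells (log2 fold change -1.74 ± 0.29 SE, adjusted p = 2.46e-04). With a replicate block within each line, this call was lost (adjusted p = 0.057). The Panc1 clones overlapped (log2 fold change -0.70 ± 0.29 SE, adjusted p = 0.071), with Paraclone replicate 3 the highest at 191 TPM, and the difference between the lines was not called (adjusted p = 0.063).

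*ABCG2*, which exports topoisomerase inhibitors and dyes, was low in most libraries. *ABCG2* stood at 2.04, 2.20 and 2.43 TPM in the 3 replicates of parental Panc1 cells, at 1.67, 2.28 and 1.40 TPM in Panc1 Holoclone cells and at 8.88, 6.41 and 4.70 TPM in Panc1 Paraclone cells. For *ABCG2*, the Panc89 values were 2.41, 1.86 and 1.86 TPM in parental, 3.44, 1.41 and 1.57 TPM in Holoclone and 2.06, 6.71 and 1.88 TPM in Paraclone cells. The Panc1 Paraclone cells stood above both other Panc1 variants in all replicates, and among the Panc89 Paraclone replicates only replicate 2, one of the libraries that stood apart, was as high. *ABCG2* was 3.74-fold lower in Panc1 Holoclone than in Paraclone cells on the TPM scale (log2 fold change -1.44 ± 0.33 SE, adjusted p = 0.0026). In Panc89 the Holoclone and Paraclone values overlapped (log2 fold change -0.43 ± 0.33 SE, adjusted p = 0.33, 95% interval -1.13 to 0.26), and without Panc89 Paraclone replicate 2 the sign of this value turned, to 0.02. Neither parental cells (log2 fold change -0.08 ± 0.33 SE, adjusted p = 0.83) nor Holoclone cells (log2 fold change 0.13 ± 0.33 SE, adjusted p = 0.74) differed detectably between the lines. The Paraclone cells had less in Panc89 (log2 fold change -0.87 ± 0.33 SE, adjusted p = 0.03), a call lost in 4 of 6 leave-one-out fits. The interaction, which is the Panc89 minus the Panc1 clone change, was 1.00 ± 0.46 (adjusted p = 0.1), and 1.46 with a call once Panc89 Paraclone replicate 2 was left out.

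*ABCB1*, the multidrug pump P-glycoprotein, was under 1 TPM everywhere and could not be tested. *ABCB1* stood at 0.410, 0.0152 and 0.111 TPM in the 3 replicates of parental Panc1 cells, at 0.201, 0.291 and 0.138 TPM in Panc1 Holoclone cells and at 0.00936, 0 and 0 TPM in Panc1 Paraclone cells. For *ABCB1*, the Panc89 values were 0.109, 0.0212 and 0 TPM in parental, 0.323, 0.374 and 0.201 TPM in Holoclone and 0.223, 0.102 and 0.205 TPM in Paraclone cells. Panc1 Paraclone cells listed it at 0 in 2 of 3 libraries. The Panc1 Holoclone replicates all lay above the Panc1 Paraclone replicates, the Panc89 clones overlapped, and the parental Panc1 replicates alone spanned nearly the whole range of the gene. *ABCC11*, a nucleotide analog exporter, reached at most 0.511 TPM.

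*ABCC4* (MRP4), which exports cyclic nucleotides and prostanoids, was lower in Panc89 in parental (-0.73 ± 0.22) and Paraclone cells (-1.31 ± 0.22). Its Panc89 Holoclone replicates were at 17.8, 12.8 and 10.1 TPM and the Paraclone replicates at 5.16, 9.05 and 6.25 TPM, without overlap (log2 fold change 0.89 ± 0.22 SE, adjusted p = 0.0051), a call lost when only these groups were fitted (adjusted p = 0.078). The related nucleotide exporter *ABCC5* was lower in Panc89 parental (-0.94 ± 0.27) and Holoclone cells (-0.77 ± 0.27, overlapping replicates, call lost when only these groups were fitted) but not detectably between Paraclone cells (-0.23 ± 0.27, adjusted p = 0.48). *ABCC10* and *ABCC2* (MRP2, the canalicular organic anion pump) passed in none of the 6 comparisons, with *ABCC10* between 12.9 and 23.2 TPM and *ABCC2* between 0.386 and 1.43 TPM in all libraries.

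Of the 8 members that export cholesterol, phospholipids and bile lipids, 4 were tested, and all 4 were higher in parental Panc89 than in parental Panc1 cells. Between the Holoclone cells 3 of them and between the Paraclone cells 1 were higher, beside 27.5%, 29.3% and 30.2% of all tested genes, and the last count is near that background. The first 2 counts include *ABCB11*, which passed the filter only through the Panc89 Holoclone libraries. The parental call of *ABCA7* was lost when only the groups compared were fitted. Of the untested members, *ABCG4* and *ABCG8* had lower means in parental Panc89 than in parental Panc1 cells (0.00742 against 0.893 and 0.0288 against 0.123 TPM). *ABCB4* had a higher one (0.0309 against 0 TPM), and *ABCG5* was at 0 in both. *ABCG1* loads cholesterol onto HDL particles. *ABCG1* stood at 0.303, 0.220 and 0.388 TPM in the 3 replicates of parental Panc1 cells, at 0.571, 0.678 and 0.299 TPM in Panc1 Holoclone cells and at 0.147, 0.129 and 0.0853 TPM in Panc1 Paraclone cells. For *ABCG1*, the Panc89 values were 23.6, 18 and 20.7 TPM in parental, 17.1, 44.9 and 51.2 TPM in Holoclone and 19.1, 2.46 and 12.2 TPM in Paraclone cells. Every Panc89 library exceeded every Panc1 library, in which no value reached 1 TPM. The log2 fold change was 4.06 ± 0.48 in parental, 4.54 ± 0.48 in Holoclone and 3.12 ± 0.48 in Paraclone cells (SE, adjusted p from 5.58e-07 to 3.70e-05). In Panc89, *ABCG1* was higher in Holoclone than in Paraclone cells (log2 fold change 1.85 ± 0.48 SE, adjusted p = 0.0069), although Holoclone replicate 1 lay below Paraclone replicate 1, and the call was lost when only these groups were fitted (adjusted p = 0.14). Paraclone replicate 2 was the lowest Panc89 value.

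*ABCA1* moves cholesterol and phospholipid to apolipoprotein A-I. *ABCA1* stood at 0.653, 0.473 and 0.563 TPM in the 3 replicates of parental Panc1 cells, at 0.192, 0.269 and 0.183 TPM in Panc1 Holoclone cells and at 3.52, 3.26 and 3.84 TPM in Panc1 Paraclone cells. For *ABCA1*, the Panc89 values were 2.82, 3.52 and 2.71 TPM in parental, 3.77, 2.37 and 3.56 TPM in Holoclone and 8.34, 3.15 and 5.61 TPM in Paraclone cells. The gene was under 1 TPM in all parental and Holoclone Panc1 cells and above 3 TPM in all Panc1 Paraclone cells. The mean was 16.5-fold lower in Panc1 Holoclone than in Panc1 Paraclone cells, the largest clone difference in this line on the log2(TPM + 1) scale (log2 fold change -1.90 ± 0.22 SE, adjusted p = 8.02e-06). Panc89 cells changed in the same direction by less (log2 fold change -0.60 ± 0.22 SE, adjusted p = 0.046), with overlapping replicates and a call lost in 4 of 6 leave-one-out fits. The change itself differed between the lines (difference in log2 fold change 1.30 ± 0.31 SE, adjusted p = 0.0045). Compared to Panc1, Panc89 had more *ABCA1* in parental (log2 fold change 1.36 ± 0.22 SE, adjusted p = 5.83e-05) and Holoclone cells (log2 fold change 1.79 ± 0.22 SE, adjusted p = 3.37e-06), whereas the Paraclone difference was 0.49 ± 0.22 (adjusted p = 0.07) and was called only without Panc89 Paraclone replicate 2. Of the leukocyte markers, *CD68* was likewise lower in Holoclone than in Paraclone cells, in Panc1 and in Panc89 (-1.15 ± 0.22 and -1.20 ± 0.22). The others, *PTPRC* and *CD3E*, reached at most 0.956 and 0.0361 TPM in any library. Between the parental lines *CD68* went the other way from *ABCA1*, at 91.1 TPM in Panc1 and 11.1 TPM in Panc89 cells. The part of *CD68* in the *ABCA1* values was not tested.

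*ABCB11*, the bile salt export pump, was low in every group. *ABCB11* stood at 0.122, 0.0126 and 0 TPM in the 3 replicates of parental Panc1 cells, at 0.107, 0.427 and 0 TPM in Panc1 Holoclone cells and at 0.0778, 0.00889 and 0.00862 TPM in Panc1 Paraclone cells. For *ABCB11*, the Panc89 values were 0.514, 0.598 and 0.791 TPM in parental, 3.14, 2.02 and 1.03 TPM in Holoclone and 0.500, 0.287 and 0.0348 TPM in Paraclone cells. Only the 3 Panc89 Holoclone libraries had it above 1 TPM, so tests of that group were not independent of the filter. *ABCB11* was higher in Panc89 Holoclone cells than in Panc1 Holoclone (log2 fold change 1.33 ± 0.22 SE, adjusted p = 5.26e-05) and Panc89 Paraclone cells (log2 fold change 1.22 ± 0.22 SE, adjusted p = 4.00e-04). *ABCA7*, a phospholipid transporter of macrophages and brain, was higher in parental Panc89 cells (log2 fold change 0.70 ± 0.26 SE, adjusted p = 0.029), a call lost in 3 of 6 leave-one-out fits, and passed in no other comparison. The sterol transporters *ABCG5* and *ABCG8*, overlapping neighbours on chromosome 2, reached at most 0.0172 and 0.158 TPM, and the phosphatidylcholine flippase *ABCB4* reached 0.0669 TPM.

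Of the 10 other A family lipid transporters, 7 were tested. *ABCA3* carries surfactant phospholipids into lamellar bodies of the lung. *ABCA3* stood at 34.6, 25.7 and 32.7 TPM in the 3 replicates of parental Panc1 cells, at 40.7, 38.8 and 39.4 TPM in Panc1 Holoclone cells and at 26.7, 42.3 and 52.6 TPM in Panc1 Paraclone cells. For *ABCA3*, the Panc89 values were 0.389, 0.376 and 0.429 TPM in parental, 0.446, 0.543 and 0.609 TPM in Holoclone and 1.45, 0.713 and 1.47 TPM in Paraclone cells. The lowest Panc1 value lay far above the highest Panc89 value. The mean was 78.0-fold lower in parental Panc89, 74.5-fold lower in Panc89 Holoclone and 33.5-fold lower in Panc89 Paraclone cells than in the matching Panc1 cells. On the log2(TPM + 1) scale these were -4.51 ± 0.20, -4.73 ± 0.20 and -4.20 ± 0.20 (SE, adjusted p from 1.20e-11 to 5.30e-11). The clones of each line did not differ detectably in it, with 0.02 ± 0.20 in Panc1 and -0.51 ± 0.20 in Panc89 cells (adjusted p = 0.97 and 0.063). The pseudogene *ABCA17P*, which overlaps the start of *ABCA3* on the opposite strand of chromosome 16, was also lower in parental Panc89 (0.0702 TPM) than in parental Panc1 cells (1.21 TPM, log2 fold change -1.04 ± 0.17 SE, adjusted p = 4.56e-05).

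*ABCA10*, whose substrate is not settled, had the largest clone difference of any tested member on the log2(TPM + 1) scale. *ABCA10* stood at 0.856, 0.177 and 0.917 TPM in the 3 replicates of parental Panc1 cells, at 0.320, 0.523 and 0.435 TPM in Panc1 Holoclone cells and at 0.609, 0.954 and 0.801 TPM in Panc1 Paraclone cells. For *ABCA10*, the Panc89 values were 4.91, 3.51 and 4.04 TPM in parental, 31.0, 47.0 and 54.8 TPM in Holoclone and 0.977, 0.983 and 1.03 TPM in Paraclone cells. The Panc89 Holoclone values exceeded all others, the parental Panc89 values came next, and the Panc89 Paraclone values, near 1 TPM, lay just above the highest Panc1 value. The Panc89 Holoclone mean was 44.3-fold above the Paraclone mean (log2 fold change 4.46 ± 0.21 SE, adjusted p = 4.02e-10). In Panc1 cells the difference was -0.32 ± 0.21 (adjusted p = 0.25), and the interaction was 4.79 ± 0.30 (adjusted p = 1.25e-08). Panc89 exceeded Panc1 in parental (1.67 ± 0.21) and Holoclone cells (4.95 ± 0.21), while the Paraclone difference was not called although the replicates did not overlap (0.16 ± 0.21, adjusted p = 0.52).

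*ABCA10* lies in a run of 5 related genes on the minus strand of chromosome 17, in the order *ABCA8*, *ABCA9*, *ABCA6*, *ABCA10* and *ABCA5* from 68867289 to 69327244 on GRCh38. *ABCA8*, *ABCA9* and *ABCA6* stayed at or under 0.144, 0.303 and 0.242 TPM in every library. *ABCA5*, a lysosomal cholesterol transporter whose annotated 3′ end overlaps the start of *ABCA10*, was between 2.86 and 8.33 TPM and passed in none of the 6 comparisons (-0.54 ± 0.23 for the Panc89 clones, adjusted p = 0.084). The antisense RNA *ABCA9-AS1*, on the opposite strand of the *ABCA8* and *ABCA9* region, was listed at 0 in all 9 Panc1 libraries. Its Panc89 values were 4.11, 1.55 and 3.81 TPM in parental, 16.1, 12.8 and 12.2 TPM in Holoclone and 3.83, 3.45 and 4.43 TPM in Paraclone cells, again with the Holoclone cells highest and no overlap with the Paraclone cells (log2 fold change 1.58 ± 0.20 SE, adjusted p = 2.20e-05).

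**Figure D5:**
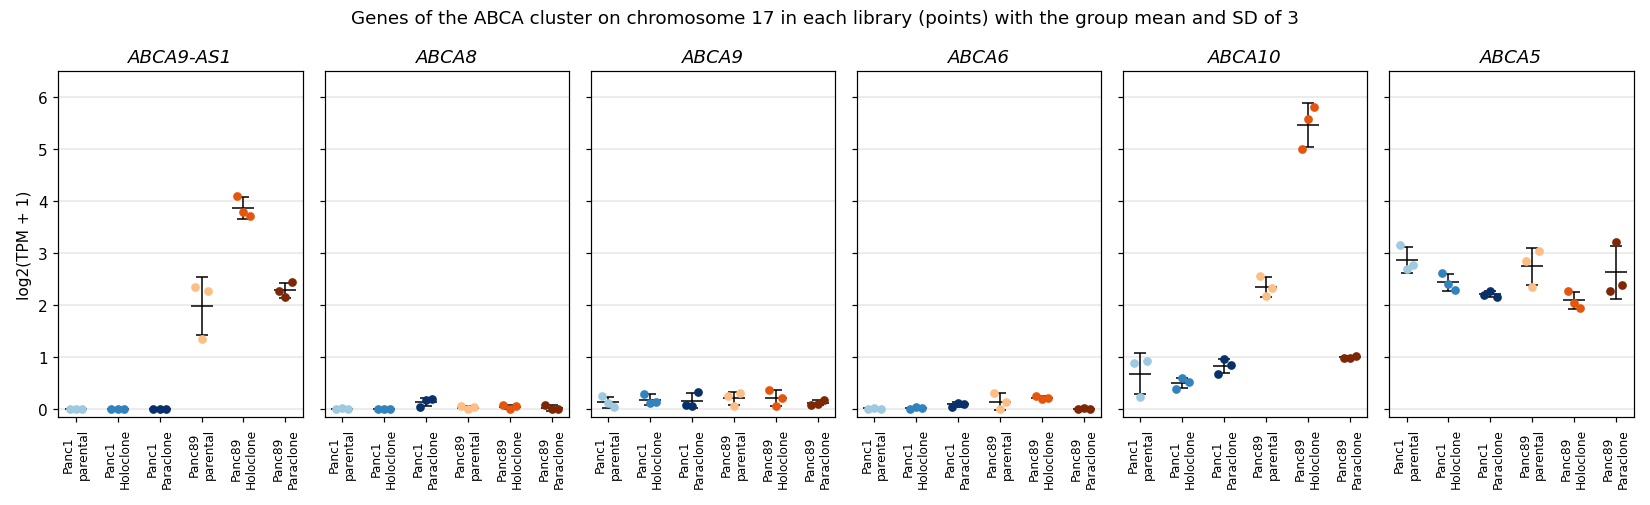
Levels as log2(TPM + 1) (vertical axis, shared by all panels) of 5 neighbouring ABCA genes and the antisense RNA *ABCA9-AS1* on chromosome 17 in the 6 cell variants (horizontal axes). Points are libraries, marks and bars the mean and SD of 3; *ABCA10* and *ABCA9-AS1* were highest in Panc89 Holoclone cells, while *ABCA8*, *ABCA9* and *ABCA6* reached at most 0.144, 0.303 and 0.242 TPM.

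*ABCA12*, the glucosylceramide carrier of the skin barrier, shared this order over the Panc89 variants. *ABCA12* stood at 0, 0 and 0 TPM in the 3 replicates of parental Panc1 cells, at 0, 0 and 0 TPM in Panc1 Holoclone cells and at 0, 0 and 0.00318 TPM in Panc1 Paraclone cells. For *ABCA12*, the Panc89 values were 3.13, 2.52 and 3.66 TPM in parental, 7.46, 11.5 and 15.6 TPM in Holoclone and 0.295, 0.953 and 0.567 TPM in Paraclone cells. The gene was listed at 0 or at 0.00318 TPM in Panc1 cells, and no Panc89 group overlapped another. It was 19.1-fold higher in Panc89 Holoclone than Paraclone cells (log2 fold change 2.93 ± 0.20 SE, adjusted p = 3.00e-08), and the interaction was equally large (2.93 ± 0.29, adjusted p = 1.48e-06). With Panc1 at or near 0, the interaction only repeats the Panc89 clone difference. All 3 line comparisons passed, but the call between the Paraclone cells was lost without Panc89 Paraclone replicate 2 (log2 fold change 0.66 ± 0.20 SE, adjusted p = 0.01).

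*ABCA13*, a very long member with lipid transport activity in vesicles, was highest in the Holoclone cells of each line, at low levels. *ABCA13* stood at 0.485, 0.773 and 0.510 TPM in the 3 replicates of parental Panc1 cells, at 2.34, 2.92 and 1.81 TPM in Panc1 Holoclone cells and at 0.0869, 0.0295 and 0.0216 TPM in Panc1 Paraclone cells. For *ABCA13*, the Panc89 values were 0.0872, 0.0667 and 0.0927 TPM in parental, 0.553, 0.550 and 0.818 TPM in Holoclone and 0.0116, 0.0300 and 0.0222 TPM in Paraclone cells. In each line the Holoclone cells were above the parental and the Paraclone cells in every replicate. The clone difference was 1.67 ± 0.13 in Panc1 (adjusted p = 1.16e-07) and 0.68 ± 0.13 in Panc89 (adjusted p = 8.23e-04), and the first was larger (difference in log2 fold change -0.99 ± 0.19 SE, adjusted p = 6.83e-04). Only the Panc1 Holoclone mean (2.36 ± 0.556 TPM, SD) exceeded 1 TPM. *ABCA13* passed the filter only through the 3 Panc1 Holoclone libraries, so tests of that group were not independent of the filter. *ABCA2*, an endolysosomal sterol and sphingolipid transporter, was at 33.0, 20.2 and 18 TPM in Panc89 Holoclone and 13.6, 11.3 and 13.3 TPM in Panc89 Paraclone cells, and its clone change differed between the lines (difference in log2 fold change 1.43 ± 0.46 SE, adjusted p = 0.024) while neither clone comparison passed. The retinoid flippase *ABCA4* was lower in parental Panc89 than parental Panc1 cells (log2 fold change -1.06 ± 0.29 SE, adjusted p = 0.0039) and passed nowhere else. Outside the parental Panc1 libraries, only Panc1 Holoclone replicate 1 and Panc89 Holoclone replicate 1 had *ABCA4* at 1 TPM or more. Its test between the parental cells was thus not independent of the filter.

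Among the 4 mitochondrial members, *ABCB8*, part of a mitochondrial potassium channel, was lower in Panc89 than in Panc1 in all 3 variants (-1.10 ± 0.24, -1.01 ± 0.24 and -0.60 ± 0.24 in parental, Holoclone and Paraclone cells). The last of these calls was lost in 4 of 6 leave-one-out fits. *ABCB6*, a porphyrin transporter, changed in opposite directions between the clones, with 10.3, 6.20 and 6.75 TPM in Panc1 Holoclone against 11.3, 12.1 and 12.3 TPM in Panc1 Paraclone cells and 13.1, 11.1 and 12.4 against 5.73, 7.92 and 7.04 TPM in Panc89. The replicates did not overlap in either line, and the difference between the lines passed (difference in log2 fold change 1.34 ± 0.30 SE, adjusted p = 0.0025). The call within Panc1 (-0.59 ± 0.21, adjusted p = 0.037) was lost in 5 of 6 leave-one-out fits, and that within Panc89 (log2 fold change 0.75 ± 0.21 SE, adjusted p = 0.011) without Paraclone replicate 1. *ABCB10*, which works in heme synthesis, was called between the Panc89 clones only (log2 fold change -0.91 ± 0.34 SE, adjusted p = 0.049). Its Panc89 Paraclone replicates stood at 10, 21.3 and 10.4 TPM, with replicate 2 far above the others, and the call was lost in 4 of 6 leave-one-out fits, that without replicate 2 among them.

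The lysosomal peptide transporter *ABCB9* was lower in every Panc89 variant. *ABCB9* stood at 18.6, 27.6 and 18.4 TPM in the 3 replicates of parental Panc1 cells, at 11.9, 13.2 and 10.8 TPM in Panc1 Holoclone cells and at 25.2, 18.8 and 18.9 TPM in Panc1 Paraclone cells. For *ABCB9*, the Panc89 values were 4.59, 4.46 and 4.87 TPM in parental, 6.44, 3.56 and 2.15 TPM in Holoclone and 1.61, 4.11 and 2.48 TPM in Paraclone cells. No Panc89 value reached the lowest Panc1 value. The log2 fold changes were -1.97 ± 0.28, -1.45 ± 0.28 and -2.60 ± 0.28 in parental, Holoclone and Paraclone cells, with adjusted p from 7.18e-07 to 2.69e-04. Its clone difference in Panc1 (log2 fold change -0.75 ± 0.28 SE, adjusted p = 0.045) was lost when any 1 of the 6 libraries was left out. *ABCD4*, which brings cobalamin out of lysosomes, was higher in Panc1 Holoclone (26.7, 25.1 and 22.3 TPM) than in Panc1 Paraclone cells (13.7, 16.8 and 14.7 TPM), without overlap (log2 fold change 0.68 ± 0.14 SE, adjusted p = 0.0012). The Panc89 clones did not differ detectably in it (-0.17 ± 0.14), and the interaction passed (difference in log2 fold change -0.85 ± 0.20 SE, adjusted p = 0.0032). Between the Paraclone cells it was higher in Panc89 (log2 fold change 0.72 ± 0.14 SE, adjusted p = 3.27e-04).

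*ABCD3*, which carries branched and dicarboxylic fatty acids into peroxisomes, was lower in Panc89 parental (-0.49 ± 0.20) and Holoclone cells (-0.65 ± 0.20), and the parental call was lost in 5 of 6 leave-one-out fits and after either scaling. *ABCD2*, another peroxisomal fatty acid transporter, reached 0.0252 TPM in Panc89 libraries.

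All 4 soluble ATPases ranked among the first 9 members by mean TPM in every group. *ABCE1* was slightly higher in Panc89 in all 3 variants (0.32 ± 0.13, 0.36 ± 0.13 and 0.46 ± 0.13), calls that leave-one-out fits removed in 5 of 6 parental and 3 of 6 Holoclone cases. In Panc1, *ABCE1*, *ABCF1* and *ABCF3* were higher in Holoclone than in Paraclone cells (0.37 ± 0.13, 0.44 ± 0.14 and 0.70 ± 0.14), and after either scaling only *ABCF3* remained called. *ABCF3* had 52.7, 41.1 and 50.9 TPM in Panc1 Holoclone and 33.1, 26.1 and 28.4 TPM in Panc1 Paraclone cells, without overlap, and its clone change differed between the lines (difference in log2 fold change -0.94 ± 0.20 SE, adjusted p = 0.0019). *ABCF2* was called lower in parental Panc89 cells (-0.49 ± 0.14) and higher in Panc89 Holoclone than Paraclone cells (0.45 ± 0.14), calls lost after either scaling, and it shares exons with the readthrough gene *ABCF2-H2BK1*, so its level is uncertain.

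*ABCC9*, the sulfonylurea receptor subunit of potassium channels, was highest in Panc89 Paraclone cells. *ABCC9* stood at 0.0479, 0.0333 and 0.0882 TPM in the 3 replicates of parental Panc1 cells, at 0.0462, 0.0325 and 0.0519 TPM in Panc1 Holoclone cells and at 0.0548, 0.0183 and 0.0391 TPM in Panc1 Paraclone cells. For *ABCC9*, the Panc89 values were 0.507, 0.419 and 0.533 TPM in parental, 0.717, 0.506 and 0.449 TPM in Holoclone and 2.30, 2.76 and 1.75 TPM in Paraclone cells. Panc1 cells stayed under 0.1 TPM, and the Panc89 Paraclone replicates lay above those of both other Panc89 variants. *ABCC9* was higher in Panc89 in all 3 variants, with the largest difference in Paraclone cells (log2 fold change 1.64 ± 0.12 SE, adjusted p = 1.05e-08), and lower in Panc89 Holoclone than Paraclone cells (log2 fold change -1.06 ± 0.12 SE, adjusted p = 7.68e-06). It passed the filter only through the 3 Panc89 Paraclone libraries, so tests of that group were not independent of the filter. The Panc1 clones did not differ detectably (0.01 ± 0.12), and the interaction passed (difference in log2 fold change -1.07 ± 0.17 SE, adjusted p = 2.07e-04). At these Panc1 levels a clone change could hardly show, so the interaction mostly repeats the Panc89 clone difference. The pancreatic beta cell receptor *ABCC8* reached at most 0.450 TPM. *ABCC6*, whose loss calcifies elastic tissue, was called between the Paraclone cells (log2 fold change 1.06 ± 0.27 SE, adjusted p = 0.0028), but its reads can be shared with *ABCC6P1* and *ABCC6P2*, so the value is uncertain. *ABCC12* and *ABCC13*, the latter a pseudogene in the annotation, reached 0.335 and 0.278 TPM, and *ABCB5*, a melanoma stem cell marker, 0.125 TPM.

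Genes that regulate or accompany the family were followed in a list of 22, of which 16 were tested. Between the lines 7, 8 and 7 of them were higher and 2, 1 and 2 lower in Panc89 parental, Holoclone and Paraclone cells (background 27.5%, 29.3% and 30.2% higher and 38.5%, 36.4% and 30.4% lower). *PPARG*, a nuclear receptor upstream of cholesterol export, was lower in Holoclone than Paraclone cells of Panc1 (log2 fold change -2.32 ± 0.18 SE, adjusted p = 7.89e-08) and Panc89 (log2 fold change -1.74 ± 0.18 SE, adjusted p = 1.92e-06). *NR1H3*, the liver X receptor alpha, was lower in Panc89 Holoclone than Paraclone cells (log2 fold change -1.04 ± 0.23 SE, adjusted p = 0.0026) and not detectably different in Panc1 (0.45 ± 0.23, adjusted p = 0.15). The nuclear receptor *RXRA* went the other way in Panc89, with a mean of 99.4 TPM in Holoclone and 21.6 TPM in Paraclone cells, without overlap. The xenobiotic receptor *AHR* was lower in Panc1 Holoclone cells (log2 fold change -1.83 ± 0.21 SE, adjusted p = 5.85e-06) but higher in Panc89 Holoclone cells (log2 fold change 1.65 ± 0.21 SE, adjusted p = 1.68e-05), and *NFE2L2*, which encodes the antioxidant factor NRF2, was higher in the Holoclone cells of both (0.77 ± 0.27 and 0.98 ± 0.27). In all, 3 of these 16 genes were higher and 5 lower in Holoclone cells of Panc1 (background 27.4% and 9.97%), and 3 were higher and 3 lower in Panc89 (background 22.4% and 13.3%). The chloride channel *CFTR*, the C family member that does not carry an ABC name, reached at most 0.560 TPM, and the peptide transporter *TAP1* was lower in Panc1 Holoclone than Paraclone cells (log2 fold change -0.90 ± 0.19 SE, adjusted p = 0.0013).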

How the data were processed

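RNA from 3 passages of each of 6 cell variants (18 libraries) was made into stranded mRNA libraries and sequenced. Per the labels and the study's methods, the authors quantified transcripts with kallisto 0.46.1 (Ensembl GRCh38 release 106), imported them with tximport as scaled TPM and deposited them by gene symbol as log2(TPM + 1). The authors tested counts, which were not used here. Since TPM keeps no totals, depth, counting intervals and limits for a value of 0 are unknown. Fold changes were kept on that log2 scale, so those of low genes are understated.

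Groups were compared by limma (version 3.58.1, R 4.3.3; eBayes with trend, a mean per group over all 18 libraries, two-sided p adjusted by Benjamini-Hochberg over 16093 genes that reached 1 TPM in 3 or more libraries, threshold 0.05). The step was tested on simulated data. The members and gene lists were chosen with earlier results of these data known. Fully described were *ABCB1*, *ABCC1* and *ABCG2* and, per comparison, up to 5 called members with the highest and 5 with the lowest change and at least 1 TPM in the higher group. Values of 2 tested members are not reported here singly, though counts and sums include them. Positions are from GENCODE 44; promoter sequences are from RefSeq on GRCh38.p14, where 35 of 46 members matched. Alternatives covered the pseudocount, filter, scaling, fitted groups, replicate block, trend, fold threshold, mitochondrial genes and leaving out each replicate.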

Additional observations from a re-analysis of the deposited data

Results flagged for a closer look

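The members named here changed differently between Holoclone and Paraclone cells in Panc89 than in Panc1, by the interaction term of the limma fit at an adjusted p under 0.05, with the difference given as the Panc89 minus the Panc1 log2 fold change. Positive differences were 4.79 for *ABCA10*, 2.93 for *ABCA12*, 1.43 for *ABCA2*, 1.34 for *ABCB6*, 1.30 for *ABCA1*, 1.15 for *ABCB9*, 1.05 for *ABCB11*, 0.93 for *ABCC4* and 0.44 for *ABCC1*. Negative differences were -1.07 for *ABCC9*, -0.99 for *ABCA13*, -0.94 for *ABCF3* and -0.85 for *ABCD4*. In Panc1 libraries *ABCA12*, *ABCC9*, *ABCB11* and *ABCA10* reached at most 0.0032, 0.0882, 0.427 and 0.954 TPM. A clone change in Panc1 could hardly show at such levels, least of all for *ABCA12* and *ABCC9*. *ABCC9*, *ABCA13* and *ABCB11* passed the filter only through Panc89 Paraclone, Panc1 Holoclone and Panc89 Holoclone cells, in that order. The calls were lost in 8 of 12 fits that left out 1 library for *ABCC4*, in 7 for *ABCB9*, in 5 for *ABCC1* and in 4 for *ABCA2*. That of *ABCB11* was lost with a pseudocount of 0.1 (adjusted p = 0.12), and that of *ABCB9* when only the groups compared were fitted. Each clone group is 1 single-cell clone, so line and clone cannot be told apart in these differences.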

How the results depend on the processing

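The counts of called members kept within 1.5 times the reported ones under the other pseudocount, filters and scalings and the replicate block over all libraries. With an absolute log2 fold change over 1 also required, they fell to 10, 12 and 9 between the lines (parental, Holoclone, Paraclone), to 3 and 7 between the clones of Panc1 and Panc89, and to 9 for the difference between the lines. Leaving out each replicate gave 18 to 22, 18 to 22, 13 to 17, 5 to 11, 11 to 17 and 10 to 17 members in the same order. Panc89 clones gave 9 called members when the fit used only the groups compared. Same-numbered libraries of a line showed no clear common deviation (correlations from -0.318 to 0.190, 3 of 18 pairs over 0.1). With so few replicates this cannot show whether they were prepared together, and the labels do not say. With a replicate block within each line, 6 members were called between the Panc89 clones and 8 between the Panc1 clones. The same block gave 10 for the difference between the lines. *ABCG2* turned direction between the parental lines after upper quartile scaling (0.051) and median-of-ratios scaling (0.078). Leaving out each replicate, its Holoclone line difference ran from -0.15 to 0.29 and its Panc89 clone difference from -0.71 to 0.024. The causes were not tested. Depth is unknown, so the counting error of low values cannot be given.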
